A study of Mus musculus with 15 samples.

Results

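Stretches of hepatocyte chromatin that were closed in wild-type mice both at postnatal day 14 (P14) and at 2 months, but open at P14 when Ezh1 and Ezh2 were missing, are described here. They were chosen by the class calls of the 3 deposited genome maps alone. Autosomal bins of 2 kb were taken that were het (closed) in P14 wild type, euch (open) in P14 knockout and het in 2-month wild type, adjacent bins were joined, and runs of at least 6 kb were kept. This gave 3350 runs, of 9442 runs of any length with that pattern, and they covered 27.1 Mb. For scale, the autosomes of the P14 wild-type map held 121311 domains of all classes, 41439 of them het.

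The maps came from srHC-seq, which crosslinks and sonicates chromatin and sorts the DNA by fragment size, because compact heterochromatin resists shearing. There were 15 mice in 3 groups of 5: P14 mice labelled Wt (3 males and 2 females), P14 mice of genotype Alb-Cre;Ezh1-/-;Ezh2f/f (2 males and 3 females), and 2-month mice labelled Wt (2 males and 3 females). All gave perfused, isolated hepatocytes. In the knockout, Ezh1 is lost from the whole animal, while the floxed Ezh2 allele is cut by Cre under the albumin promoter and so in the hepatocyte lineage. The labels do not say whether the wild-type mice carried floxed alleles or Cre, and the intervals hold no measure of how completely Ezh2 was deleted. Each group is represented by 1 map, read as a pool of its animals, in which each autosomal bin is het, int (intermediate) or euch. The maps hold no read counts, so the depth behind a call is unknown. No difference here has a replicate check, since a group is a single map.

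Ezh1 and Ezh2 are the alternative catalytic subunits of Polycomb repressive complex 2 (PRC2), which methylates lysine 27 of histone H3. The trimethylated mark is read by other Polycomb proteins, and together they keep many developmental genes silent in cells where those genes are not used. In liver, PRC2 is known for holding back genes of the mature hepatocyte before and soon after birth and for silencing genes of other lineages and of fibrosis. Which genes and sequences lie in the runs was not analysed here: the intervals are on build mm9 and the gene table at hand is on GRCm38. Regions are therefore given by position. The hepatocyte label was, for the same reason, not checked against marker loci.

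Of the wild-type het bins that became euch in the knockout, fewer were het at 2 months than euch. Of 561311 autosomal bins that were het in P14 wild type, 61896 were euch in the knockout, or 11%. At 2 months 21890 of these were het, 9204 were int and 30802 were euch. The bins of the rule thus made up 3.9% of the wild-type het bins, and 35.4% of those that opened in the knockout. Bins euch in both the knockout and the 2-month map made up 5.49% of wild-type het bins. Bins euch only at 2 months, and het in the knockout, made up 6.2%. These percentages describe the contrast that chose the runs, and nothing is read from them about the runs. All comparisons share the P14 wild-type map. How calls were scaled within each map is not given in the sources used here, so a class is relative to the map it stands in.

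Bins in which the knockout map alone went from 1 extreme to the other were the least common of the 6 such patterns. The knockout alone was euch in 43.8 Mb and alone was het in 34.5 Mb. The 2-month map alone was euch in 69.6 Mb and alone was het in 59.0 Mb. The P14 wild-type map alone was het in 61.6 Mb and alone was euch in 82.8 Mb. A call error in a single map adds to its own patterns, and how much of any of them came from such errors was not tested.

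The runs were short. Their median length was 8 kb and their mean 8.10 kb, and the longest measured 26 kb. At the threshold stood 1541 runs of exactly 6 kb, just inside the rule, and 2228 runs of 4 kb just outside it. A further 3864 runs were single bins of 2 kb. Runs of 6 or 8 kb made up 73.0% of the 3350, and 96 runs, or 2.87%, reached 16 kb. Stretches found in the same way that were open only at 2 months were more numerous and longer, with 5601 runs, a mean of 9.12 kb and a longest of 62 kb. Of those, 8.21% reached 16 kb. Stretches open in both the knockout and the 2-month map numbered 4909, with a mean of 8.44 kb and a longest of 42 kb. The mirror pattern, closed in the knockout only, had 2559 runs with a mean of 8.01 kb and a longest of 30 kb, close to the values of the runs that opened.

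**Figure D1:**
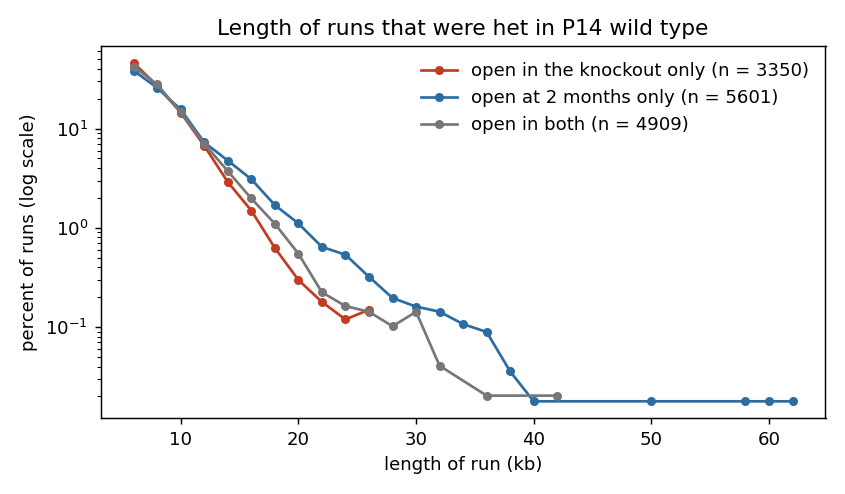
Percent of runs (log scale) against their length in kb, for runs of at least 6 kb that were het in P14 wild type and open in the knockout only, at 2 months only, or in both. The curve of the 3350 knockout-only runs falls fastest and ends at 26 kb, while those open at 2 months only reach 62 kb.

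Many of the runs were new open islands inside a closed domain. Each run lies in 1 euch domain of the knockout map, and that domain was placed on the P14 wild-type map. For 1400 runs (41.8%) the knockout euch domain lay wholly inside a single wild-type het domain. For 356 (10.6%) it passed the edge of that het domain without meeting wild-type euch. For 1251 (37.3%) it reached into wild-type euch on 1 side, as when an open domain extends into its closed neighbour. The maps do not show the direction of such a change. For 343 (10.2%) it held wild-type euch on both sides, so that the closed interval between open domains was open as well. In 1121 runs (33.5%) the knockout euch domain was the run itself and nothing more.

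The same placement for the other patterns gave smaller shares of islands. Among runs open at 2 months only, the 2-month euch domain lay inside 1 wild-type het domain for 1340 (23.9%). It held wild-type euch on both sides for 1573 (28.1%). Among runs open in both, the knockout euch domain did so for 811 (16.5%) and 1661 (33.8%). By number, the islands open at 2 months only were thus close to the 1400 of the knockout-only runs. The 2-month map had 25999 euch domains and the knockout map 36222, for nearly equal shares of the autosomes (43.0% and 42.4%), so its domains were longer on average. The part of domain length in these shares was not tested. The first and last of the patterns were both read from the knockout map.

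**Figure D2:**
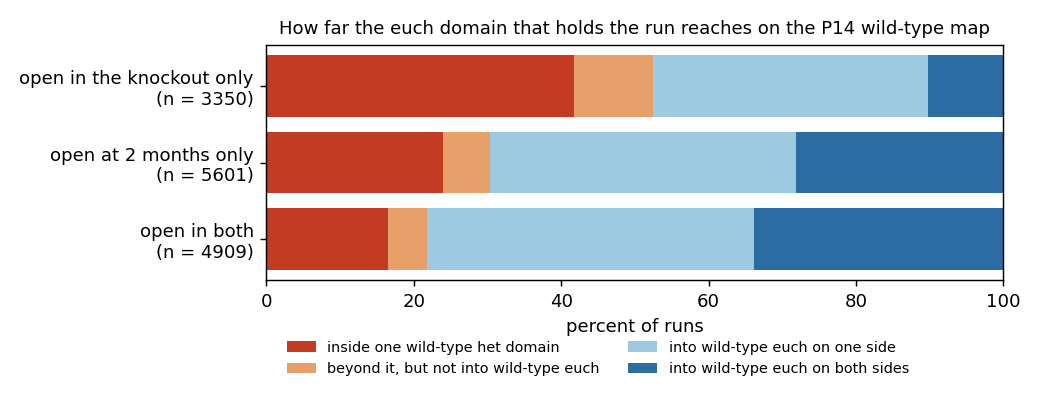
Percent of runs by how far the euch domain that holds the run reaches on the P14 wild-type map, for the 3 patterns (2-month euch domain for runs open at 2 months only, knockout euch domain otherwise). Domains inside 1 wild-type het domain hold 41.8% of knockout-only runs, 23.9% of 2-month-only runs and 16.5% of runs open in both.

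The islands and the extensions were alike in length but not in setting. By definition, the knockout domain of an island fits inside its het domain, and that of an extension passes the edge. The order of the domain lengths given here is thus partly set by the definition. Island runs had a mean length of 8.10 kb, and the wild-type het domain around them had a median of 52 kb. Runs whose knockout domain reached wild-type euch on 1 side also had a mean of 8.10 kb, with a median het domain of 20 kb. Runs with wild-type euch on both sides had a mean of 8.39 kb in het domains with a median of 10 kb. The median knockout euch domain was 8 kb, 22 kb and 54 kb in the same order. The 2-month het domain that held the run had a median of 60 kb for islands, 26 kb for extensions on 1 side and 12 kb for closed intervals between open domains.

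Within the closed domains of the wild type, the runs lay towards edges and in the shorter domains. They did so less than runs open in both the knockout and the 2-month map. Over all 3350 runs the wild-type het domain that held the run had a median length of 28 kb (quartiles 14 and 56 kb), and the run took up a median of 27.8% of it. The whole het domain was the run in 330 cases (9.85%), the run touched 1 edge in 1388 (41.4%), and it touched none in 1632 (48.7%). Of runs open in both the knockout and the 2-month map, 37.0% were whole het domains and 17.9% touched no edge. Of runs open at 2 months only, 14.3% and 40.5% were so.

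Counted by bins of any run length, the knockout-only pattern held 7.40% of wild-type het within 2 kb of a domain edge, 4.24% at 4 to 10 kb and 0.690% beyond 50 kb. The pattern open in both held 15.7%, 5.04% and 0.243% at the same distances. The pattern open only at 2 months held 10.3%, 7.79% and 0.978%. From the edge to beyond 50 kb the knockout-only pattern thus fell by much the same factor as the 2-month-only pattern and by a smaller factor than the pattern open in both. By length of the het domain, runs took 2.96% of the het bases in domains under 10 kb, 3.64% in those of 10 to 19 kb, 2.96% from 20 kb, 2.27% from 50 kb, 1.56% from 100 kb and 0.592% from 200 kb upward. For runs open in both, the same series ran from 12.6% in the shortest to 0.292% in the longest domains. For runs open at 2 months only it was 6.63% in the shortest, 7.51% at 10 to 19 kb and 1.04% in the longest.

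Of the 3350 runs, 1278 (38.1%) stood directly against wild-type euch, or against an int rim of at most 4 kb followed by euch, on at least 1 side. On both sides 192 (5.73%) did. For runs open in both the shares were 72.4% and 26.3%, and for runs open at 2 months only 45.6% and 8.73%.

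The ends of the runs were set more often by the knockout map than by the others. At 3536 of 6700 run ends (52.8%) the knockout map alone left its class while both wild-type maps were still het. The neighbouring bin was het in all 3 maps at 2238 ends and int in the knockout between 2 het maps at 1298. At 1260 ends (18.8%) only the P14 wild type left het, at 1017 (15.2%) only the 2-month map did, and at 887 (13.2%) at least 2 maps changed class together. At most run ends, therefore, the next bin was still closed in both wild-type maps.

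Beyond their ends the runs had closed surroundings that were more closed still at 2 months. At 2 kb outside the ends, 17.6% of positions were euch in P14 wild type, 43.1% in the knockout and 12.3% at 2 months. At 10 kb the P14 maps crossed, at 32.5% for wild type and 32.4% for knockout, while the 2-month map had 24.4%. From 12 to 48 kb the knockout was again higher than P14 wild type at all 19 steps of 2 kb, by 0.194 to 1.73 percentage points. At 50 kb the values were 37.7%, 36.8% and 31.6%, and at 100 kb 39.8%, 40.3% and 35.6%. The autosomes as a whole were euch in 42.7%, 42.4% and 43.0%. Most of the excess of open calls in the knockout thus lay within 8 kb of the run, with a small one from 12 to 48 kb. From 50 to 100 kb the knockout was higher at 21 of 26 steps, with differences from -0.970 to 1.43 points. The excess next to the run is partly set by the rule, since many knockout euch domains ran on past the run. The 2-month map was below both P14 maps at every distance up to 100 kb.

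The comparison patterns stood in more open surroundings, with another order of the maps. At 10 kb outside runs open in both, euch covered 53.6% in P14 wild type, 60.2% in the knockout and 70.0% at 2 months. At 10 kb outside runs open at 2 months only, it covered 42.1%, 46.5% and 61.5%. Both were most open at 2 months at that distance, whereas the knockout-only runs were least open there. The classes inside the runs were set by the rule, and flanks can share domains with them. The 2-month domain that held the run had a median of 38 kb for knockout-only runs. It had a median of 40 kb for runs open at 2 months only and 66 kb for runs open in both. The place of the 2-month map at 10 kb is thus partly set by the rule.

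**Figure D3:**
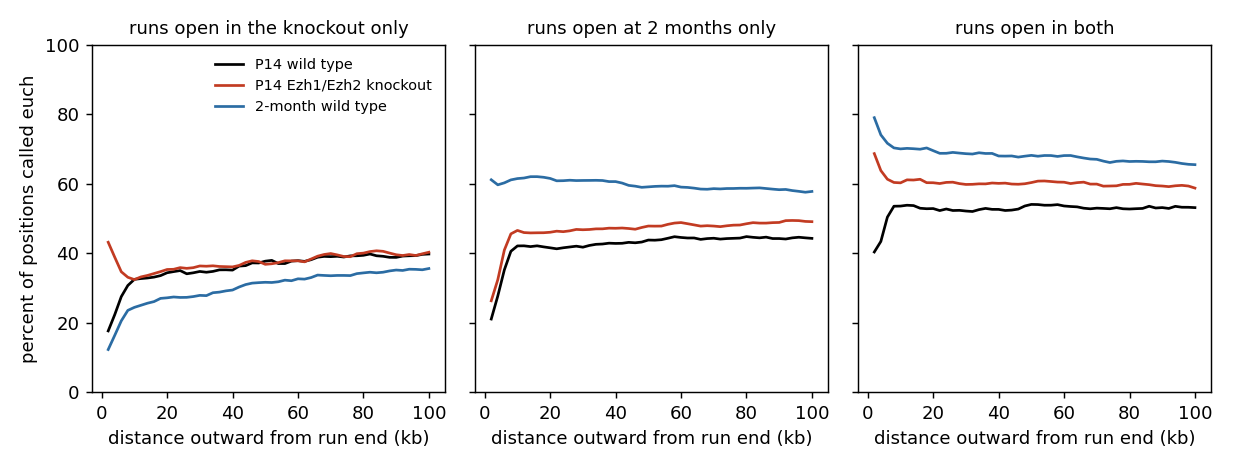
Percent of positions called euch against distance outward from the run ends (2 to 100 kb, both ends pooled), with a line for each map and a panel for each pattern of runs. Around knockout-only runs the P14 lines cross at 10 kb (32.5% and 32.4%), the knockout line lies up to 1.73 points higher between 12 and 48 kb, and the 2-month line is below them over the whole range drawn.

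From run to run, the flanks were mixed. Over 50 kb on each side, the euch share had a median of 32% in P14 wild type, 32% in the knockout and 20% at 2 months. It was higher in the knockout than in P14 wild type around 1823 of the 3350 runs (54.4%). That was less often than around runs open at 2 months only (59.8%) or in both (71.6%). The euch share was higher in the knockout than in both wild-type maps around 1313 (39.2%), against 11.6% and 21.2% for those patterns. It was lower at 2 months than at P14 in wild type around 1915 (57.2%), against 11.6% and 12.5%. Flanks can share domains with the runs, so these differences between patterns are partly set by the rule. No euch at all was called in these flanks in any map for 69 runs, so that their flanks were het or int throughout. The closed domain that held the run was longer at 2 months than at P14 for 1819 runs (54.3%), of equal length for 209 and shorter for 1322. Het domains were longer at 2 months over all autosomes too. There were 28510 with a median of 18 kb, against 41439 with a median of 14 kb in P14 wild type.

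The runs were spread over all 19 autosomes. Their bases were most numerous on chromosomes 1 (2954 kb in 355 runs), 2 (2282 kb in 283), 3 (1832 kb in 240), 5 (1764 kb in 204) and 4 (1656 kb in 210), the 5 longest autosomes. Per Mb of P14 wild-type het there were 24.2 kb in runs over all autosomes. Chromosome 1 had the most by this measure, 33.6 kb, followed by chromosomes 10 with 29.0 kb and 2 with 28.9 kb. Chromosome 7 had the least, 14.6 kb. The highest was 2.29 times the lowest.

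Chromosome 19 did not stand out among the autosomes for these runs as it did for the others. It had 24.0 kb in knockout-only runs per Mb of wild-type het, near the 24.2 kb of all autosomes. It had 83.7 kb in runs open at 2 months only and 72.1 kb in runs open in both, against 45.5 and 36.9 kb over all autosomes, the highest autosome in each. Chromosomes 11 and 19 together held 7.25% of wild-type het and 8.08% of the bases in knockout-only runs, a ratio of 1.11. The ratio was 1.39 for runs open at 2 months only and 1.49 for runs open in both. On chromosomes 1 and 3 the 3 patterns had nearly equal amounts, 33.6, 35.2 and 33.2 kb per Mb on chromosome 1 and 28.5, 31.5 and 31.3 kb per Mb on chromosome 3, in the order knockout only, 2 months only and both.

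**Figure D4:**
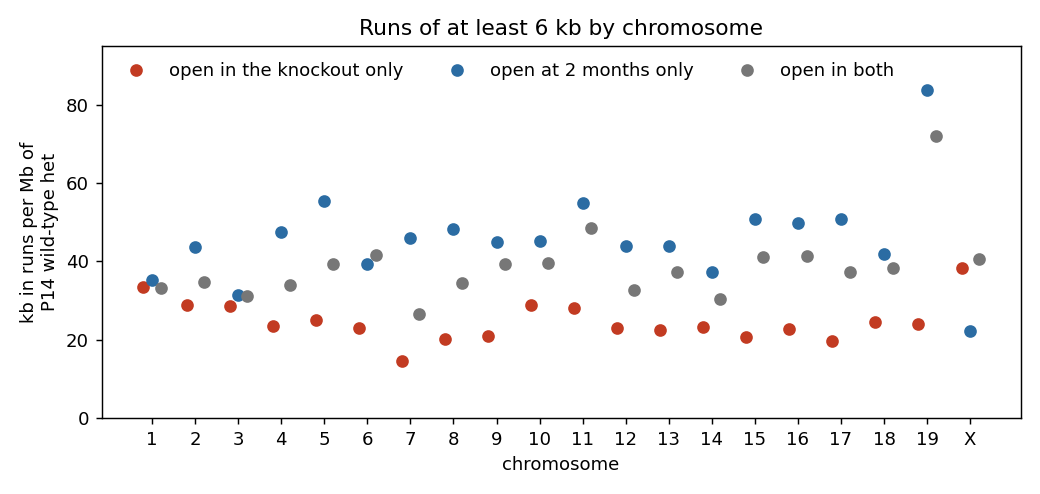
Bases in runs of at least 6 kb per Mb of P14 wild-type het, by chromosome, for the 3 patterns of runs; chromosome X was not part of the rule and is drawn for reference. Knockout-only runs lie between 14.6 (chromosome 7) and 33.6 kb per Mb (chromosome 1) on the autosomes, and chromosome 19 is high for the other patterns.

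The runs were sparse, and few had another run within 20 kb. Whether they lay closer together than their number alone would give was not tested. The nearest other run was at a median of 160 kb (quartiles 54 and 422 kb), against 60 kb for runs open at 2 months only and 84 kb for runs open in both, which are more numerous. A neighbour within 20 kb was found for 358 runs (10.7%). Of 3176 wild-type het domains that held a run, 3018 held 1 and 158 held 2 or more. Of 2463 windows of 1 Mb, 848 (34.4%) held no base of a run, and the median window held 8 kb. Of these windows 66 had no P14 wild-type het and could hold none; among the other 2397, 782 (32.6%) held none, and the median was again 8 kb.

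Per Mb of wild-type het the runs were denser in regions of mixed chromatin than in largely closed ones. Windows in which het covered 20 to 40% of P14 wild type had 36.4 kb, those at 40 to 60% had 28.8 kb, those at 60 to 80% had 16.8 kb, and those at 80% or more had 7.68 kb. Windows under 20% had 35.5 kb. Runs open in both were concentrated further in the most open windows, with 127 kb per Mb of het in those under 20% and 6.91 kb in those at 80% or more. Runs open at 2 months only also thinned out with the het share, from 78.8 kb under 20% to 17.7 kb at 80% or more.

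Runs also occurred where the surrounding region was not more open in the knockout. Windows whose euch total was at least 50 kb higher in the knockout than in P14 wild type numbered 684 and held 38.7% of the bases in runs, at 35.2 kb per Mb of wild-type het. Windows within 50 kb of equality numbered 1117, the 66 without wild-type het among them, and held 36.8%, at 19.8 kb per Mb. Windows at least 50 kb lower numbered 662 and held 24.5%, at 20.9 kb per Mb. The runs themselves add to the euch total of the knockout, so the first value is partly set by the rule.

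The 5 windows with the most bases in runs were all more open in the knockout than in either wild-type map. Ranking windows by bases that are open in the knockout alone favours such an order. The first was chromosome 11 from 96000001 to 97000000, with 118 kb in 10 runs, or 24.1% of its wild-type het. Euch covered 450 kb of it in P14 wild type, 714 kb in the knockout and 444 kb at 2 months. Its het totals were 490, 200 and 452 kb in the same order. Both wild-type ages thus had nearly the same amounts. The runs there began at 96016001 and the last ended at 96984000. The 26 kb run from 96222001 to 96248000 and a 10 kb run from 96190001 to 96200000 lay in a single knockout euch domain of 188 kb, from 96088001 to 96276000. That domain was mostly open in P14 wild type, with 124 kb of euch and 64 kb of het, and mostly closed at 2 months, with 46 kb of euch and 128 kb of het. The neighbouring knockout euch domain, from 96016001 to 96072000, held 2 runs of 16 and 14 kb, and at 2 months 50 of its 56 kb was het.

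The next window, chromosome 12 from 28000001 to 29000000, held 106 kb in 9 runs, not counting the bases of the last run beyond the window. Its euch total was 308 kb in P14 wild type, 532 kb in the knockout and 350 kb at 2 months. At its end a knockout euch domain of 114 kb, from 28894001 to 29008000, held 5 runs, the most in any knockout domain. They measured 16, 12, 12, 12 and 26 kb and were 2 to 8 kb apart. That domain had 82 kb of het and 14 kb of euch in P14 wild type, and 96 and 12 kb at 2 months. It was thus a largely closed stretch at both wild-type ages and a single open domain in the knockout.

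Chromosome 10 from 61000001 to 62000000 held 92 kb in 9 runs, with euch totals of 206 kb in P14 wild type, 384 kb in the knockout and 282 kb at 2 months. Its longest run measured 18 kb, from 61872001 to 61890000, and was itself the whole knockout euch domain. The remaining windows adjoin each other on chromosome 9. From 61000001 to 62000000 there were 84 kb in 8 runs, with euch totals of 434, 626 and 534 kb in the order P14 wild type, knockout and 2 months. From 60000001 to 61000000 there were 80 kb in 9 runs, with 280, 476 and 354 kb. In all of these but the window on chromosome 11 the 2-month euch total lay between those of the P14 maps.

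Most of the 15 longest runs belonged to knockout euch domains that also held some wild-type euch. They measured 22 to 26 kb and lay on 11 chromosomes. The knockout euch domain reached wild-type euch on 1 side in 11 and on both in 2, passed the het edge without meeting it in 1 and lay inside the het domain in 1. That euch could be a small part, as 4 kb of the 48 kb domain of the run on chromosome 6 from 55428001. Of the 15 runs, 6 stood against wild-type euch or its int rim. The wild-type het domains that held them had a median of 38 kb (22 to 244 kb), the knockout euch domains a median of 42 kb (24 to 188 kb) and the 2-month het domains a median of 42 kb (24 to 202 kb). Over 50 kb on each side the median euch share was 32% in P14 wild type, 50% in the knockout and 12% at 2 months. In 11 of 15 it was highest in the knockout.

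There were 5 runs of 26 kb. The run on chromosome 5 from 139750001 to 139776000 lay inside a wild-type het domain of 48 kb, and the knockout euch domain of 62 kb ran on past it into wild-type euch. Its flanks were euch in 34% of P14 wild type, 52% of knockout and 92% of 2-month positions, so at 2 months a closed domain of 34 kb stood in open chromatin. On chromosome 6 from 55428001 to 55454000 the run was the end of a het domain of 110 kb. On chromosome 8 from 87136001 to 87162000 it was the end of a het domain of 244 kb, the longest among the 15, next to wild-type euch. The flanks on chromosome 6 were largely closed in every map (4%, 22% and 4% euch, in the same order), and those on chromosome 8 were mixed (42%, 52% and 50%).

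The other 2 of that length lay in the leading windows. On chromosome 11 from 96222001 to 96248000 the run was a whole wild-type het domain with euch on both sides. Its flanks were euch in 72% of P14 wild type, 96% of knockout and 12% of 2-month positions. This closed interval thus stood between open domains in P14 wild type and in mostly closed surroundings at 2 months. On chromosome 12 from 28982001 to 29008000 the run was the start of a het domain of 208 kb, and its flanks were euch in 2%, 68% and 4%. That was the widest gap between the knockout and both wild-type maps among the 15.

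The 4 runs of 24 kb were less alike. On chromosome 2 from 17762001 to 17786000 the knockout euch domain was the run itself, inside a het domain that measured 38 kb in P14 wild type and 36 kb at 2 months. The flanks were euch in 12%, 12% and 6%. It was the only island among the 15. On chromosome 6 from 81704001 to 81728000 the run was the end of a het domain of 104 kb, and the 2-month het domain around it measured 162 kb. On chromosome 9 from 60330001 to 60354000 a knockout euch domain of 42 kb reached in from 18 kb of wild-type euch. On chromosome 11 from 97422001 to 97446000 the run made up all of a 2-month het domain of 24 kb and all but 2 kb of a wild-type het domain of 26 kb, in open flanks (46%, 62% and 66%).

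The 6 runs of 22 kb included another whole het domain. That was on chromosome 4 from 22048001 to 22070000, between wild-type euch on both sides, and the 2-month het domain there measured 66 kb. The run on chromosome 1 from 65510001 to 65532000 had flanks of 4%, 10% and 0% euch and was the start of a het domain of 88 kb. On chromosome 5 from 107200001 to 107222000 the knockout euch domain of 26 kb met wild-type int but no euch. The runs on chromosome 7 from 146546001 to 146568000, chromosome 9 from 40274001 to 40296000 and chromosome 13 from 109428001 to 109450000 each belonged to a knockout euch domain of 32 to 38 kb with 4 to 8 kb of wild-type euch.

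**Figure D5:**
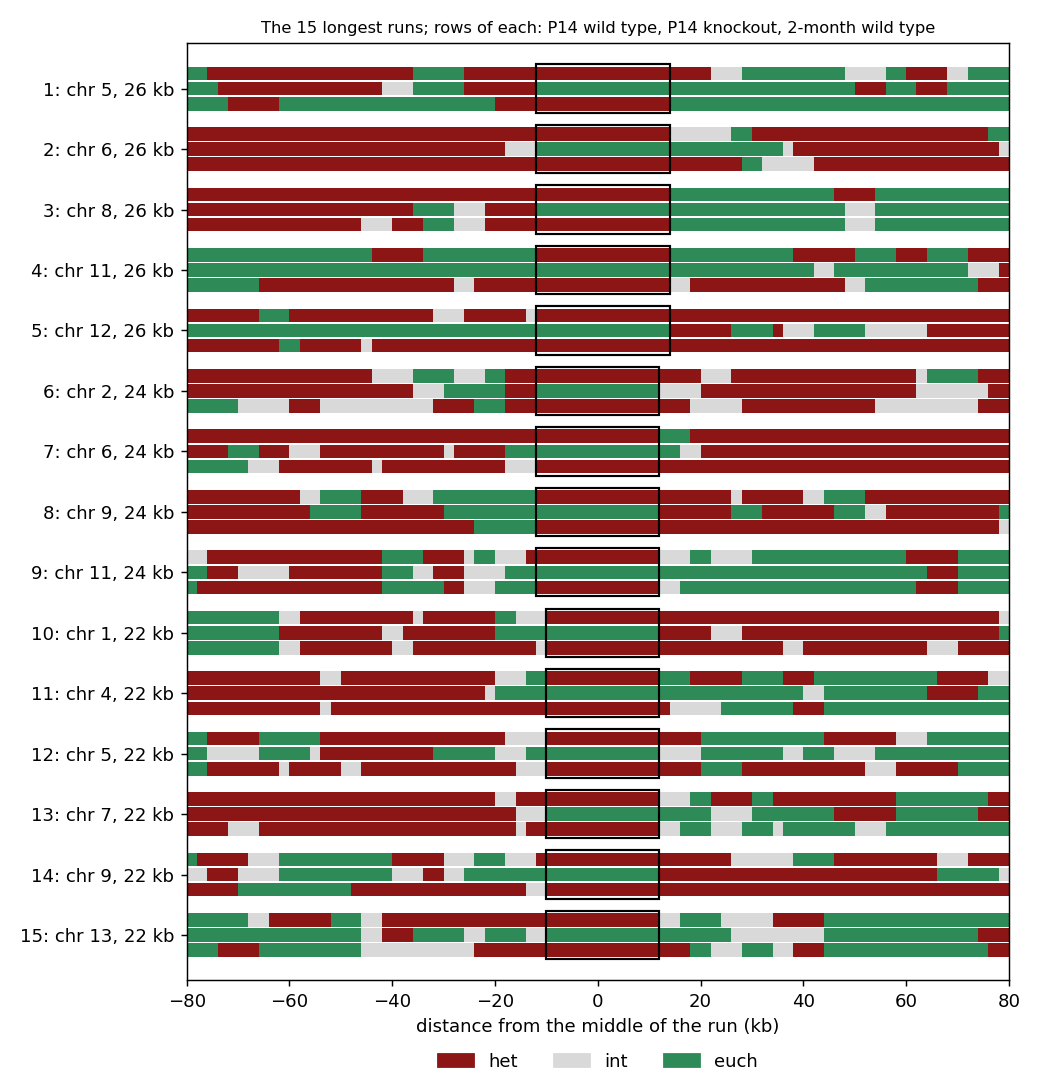
Class calls of the 3 maps around the 15 longest runs, centred on each run (box), with distance in kb on the x axis and rows in the order P14 wild type, P14 knockout and 2-month wild type. Inside each box the upper and lower rows are het and the middle row is euch by the rule; outside it, the flanks of the chromosome 12 run are euch in 68% of knockout positions and in 2% and 4% of the others, and the chromosome 2 run is an island inside a closed domain.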

How the data were processed

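srHC-seq of hepatocytes was done on 15 mice in 3 groups of 5. The submitters' processing notes name the build mm9 and the software STAR 2.4.2a, bcl2fastq 2.19.0.316 and bedtools, in no order; the domain caller and its thresholds are not given in the sources used here. The deposited files are 9 interval lists (3 classes in 3 groups) with no signal and a score of 0, each named under the samples of its group; 1 of the 2-month females lacks the euch list in its description. The lists were taken as pools of their groups. Starts lay on a 2 kb grid, and the lists of a group tiled the autosomes without overlap or gap.

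Bins of 2 kb were compared in Python 3.11.15 (SciPy 1.17.1, pandas 2.3.3, NumPy 2.4.6) and plotted in Matplotlib 3.10.9. Positions count from 1. Runs of the other patterns were found the same way. The procedure was tested on planted runs. With a single map a group, no test was run. The runs, comparison patterns and windows were chosen with earlier results of these data known. Regions named are the 15 longest runs and the 5 windows of 1 Mb and 5 autosomes with the most bases in runs. Gene lists and marker loci set down for an mm9 annotation were not used. Alternatives were other lengths, classes, edges, domain sizes and chromosomes.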

Additional observations from a re-analysis of the deposited data

How the results depend on the processing

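The count and total length of the runs followed the rule's limits. There were 9442 runs (43780 kb) with no minimum length, 904 (10654 kb) from 10 kb and 25 (558 kb) from 20 kb. There were 7603 (65684 kb) when int in the knockout counted as open, and 1797 (14588 kb) from bins at least 4 kb from a het edge. In het domains of at least 20 kb there were 2194. Both totals changed by less than 1.5 times with int allowed at 2 months (4874 runs, 40686 kb), runs 1 bin apart joined or chromosome X added. They also did with 1 kb bins or any autosome left out, but these settings could not give a larger change. Starts lay on a 2 kb grid, and chromosome 1, the autosome with the most, held 355 of the 3350 runs. The share of wild-type het bins with the pattern was 2.86% away from edges, 4.04% with X and 5.54% with int allowed at 2 months, and ran from 3.81 to 4.03% over left-out autosomes (lowest without chromosome 1, highest without chromosome 7). The share of runs against wild-type euch was 43.6% with no minimum length, and 32.9% and 42.4% with int rims of up to 2 and 10 kb. The ratio for chromosomes 11 and 19 was 1.27 in runs from 10 kb. Knockout-only opening was 0.629 of 2-month-only opening by bins. It was 0.532 in runs from 6 kb, 0.400 in runs from 10 kb, 0.606 away from edges and 0.664 with X, and ran from 0.604 to 0.648 over left-out autosomes. The ratio for chromosomes 11 and 19 was not recomputed without either of them, and GC content and transcription starts were not run, for want of an mm9 genome. No paired analysis was possible because every group is a single pooled list, from which no animal can be paired or left out.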

Other observations

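Chromosome X was not part of the rule. By the same steps it held 282 knockout-only runs, 2400 kb in all, which is 38.4 kb per Mb of its P14 wild-type het and more than on any autosome (highest 33.6 kb on chromosome 1). It held 172 runs open at 2 months only (22.3 kb per Mb, less than on any autosome, where the lowest was 31.5 kb on chromosome 3) and 321 open in both (40.5 kb per Mb). The P14 wild-type pool had 2 females of 5, and both other pools had 3. On X, sex mix and condition cannot be told apart in comparisons with P14 wild type, on which all of these patterns rest. The knockout and 2-month pools had the same mix.

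The runs were less dense at the chromosome starts. In the first 5 Mb of each autosome that carried a class other than int, there were 11.2 kb in knockout-only runs per Mb of wild-type het, against 20.4 kb in the last 5 Mb and 25.0 kb in the rest. Runs open at 2 months only had 56.9, 62.9 and 44.1 kb per Mb in the same order, and so were denser at both ends than in between. Runs open in both had 27.6, 45.9 and 36.9 kb per Mb, and so were also least dense at the starts.

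Some windows rich in runs closed as a whole in the knockout. Of 37 windows with at least 50 kb in runs, the euch total was higher in the knockout than in P14 wild type in 29 and lower in 8. Over all 2463 windows it was higher in the knockout in 1267 (51.4%), with a median change of 4 kb. Choosing windows by their bases in runs favours a higher knockout total. On chromosome 7 from 102000001 to 103000000, named after its values were seen, there were 70 kb in 8 runs, while euch totals were 248 kb in P14 wild type, 178 kb in the knockout and 52 kb at 2 months. On chromosome 11 from 39000001 to 40000000, named likewise, there were 60 kb in 8 runs, with 322, 208 and 26 kb. In both, open stretches of the knockout appeared in a region that was more closed in the knockout than in P14 wild type, and most closed at 2 months.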
